A study of Saccharomyces cerevisiae with 4 samples.

Results

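HXT1, HXT7 and GPM1 code for proteins at both ends of sugar use in Saccharomyces cerevisiae, and they are 3 of the 5794 features on the arrays of this series. They were chosen for ratios to Ssa1 already known from these data, so the ratios describe them and support nothing. Their features were found by setting all 4 intensities against the study's own list of changed genes, which was used for names only. Of the features, 947 have a gene name in this way.

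Each array measured RNA of a single strain of G402, a yeast that lacks all of the chromosomal genes SSA1, SSA2, SSA3 and SSA4 (ssa1::KanMX, ssa2::HIS3, ssa3::TRP1 and ssa4::URA3) and is of mating type a (MATa) with mutations in ura3, trp1, lys2, leu2 and his3, kar1-1, ade2-1 and the suppressor SUQ5. The strains differed in the plasmid that held the sole source of Ssa, the major cytosolic Hsp70 chaperone, and are called Ssa2, Ssa3, Ssa4 and Ssa1 after it. Ssa1 served as the control. All of them were [psi-] and expressed the chaperone from the constitutive SSA2 promoter on a low-copy plasmid selected by LEU2, so every strain including Ssa1 was a deletion strain with a plasmid-borne chaperone. RNA was pooled over extracts before labelling (8 per strain by the deposited description, fewer by the study's methods), and each strain has 1 array. The labels describe exponentially growing cultures and the methods overnight growth.

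The 4 arrays had intensity medians between 200.4 and 201.5, with values for 5776 to 5786 features, and the share of values below 100 lay between 32.2% and 34.1%. SSA2 had an intensity of 2505 on the Ssa2 array and at most 9.01 on the others, as its label requires, but it does not tell the other arrays apart. With 1 array per strain there is no spread between replicates, no test was made, and the number of arrays limits the precision of every value. A feature is called induced above a ratio to Ssa1 of 2 and repressed below 0.5. All 3 comparisons share the Ssa1 array.

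Yeast takes up glucose by facilitated diffusion through the Hxt family of hexose transporters. The family members differ in their affinity for the sugar and in the glucose level at which their genes are transcribed. Low-affinity transporters are known to be made when glucose is plentiful and high-affinity ones when it is scarce. Inside the cell the sugar is phosphorylated and broken down by glycolysis, in which phosphoglycerate mutase carries out one of the last steps and also works in reverse during gluconeogenesis.

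HXT1 (YHR094C), the low-affinity glucose transporter whose gene is known to be induced by high glucose, gave its highest intensity in the strain expressing Ssa4. The intensity was 106 in Ssa2, 120 in Ssa3 and 668 in Ssa4, against 39.5 in Ssa1. The Ssa4 strain stood apart from the other strains and Ssa1 was the lowest, while Ssa2 and Ssa3 lay close together. The ratio to Ssa1 was 2.69 in Ssa2, 3.05 in Ssa3 and 16.9 in Ssa4, and the last was the third highest ratio among 5776 features. HXT1 was thus past 2-fold in each strain.

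HXT7 (YDR342C), a high-affinity transporter whose gene is repressed by high glucose, was highest in the strain expressing Ssa3. It had an intensity of 194 in Ssa2, 434 in Ssa3 and 107 in Ssa4, against 70.6 in Ssa1. As for HXT1 the lowest value was that of Ssa1, but the order of the other strains differed, with Ssa4 next to Ssa1. The ratio to Ssa1 was 2.76 in Ssa2, 6.15 in Ssa3 and 1.51 in Ssa4. The ratio in Ssa3 was the third highest among 5779 features, whereas that in Ssa4 did not pass 2-fold and was exceeded by 14.4% of all features.

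GPM1 (YKL152C), phosphoglycerate mutase, was higher in Ssa3 and lower in Ssa4 than in Ssa1. Its intensity was 916 in Ssa2, 4959 in Ssa3 and 772 in Ssa4, against 1706 in Ssa1. Ssa2 and Ssa4 were near each other and both below Ssa1. The ratio to Ssa1 was 0.537 in Ssa2, just short of the limit for repression, 2.91 in Ssa3 and 0.453 in Ssa4, just past it. A lower ratio than that of GPM1 was found for 3.55% of the features in Ssa2 and for 5.00% in Ssa4, and a higher one for 0.502% in Ssa3.

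**Figure D1:**
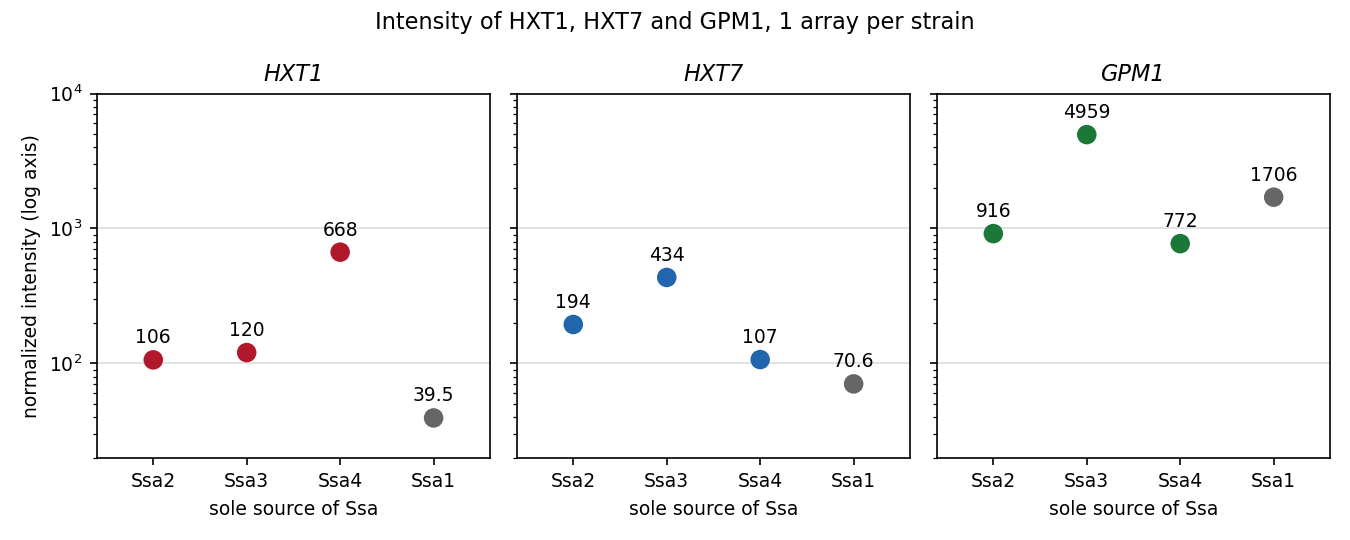
Normalized intensity (log axis) of HXT1, HXT7 and GPM1 on the arrays of the strains expressing Ssa2, Ssa3, Ssa4 or Ssa1, with 1 point per array and no error bars because each strain has 1 array. HXT1 peaks in Ssa4 at 668, HXT7 in Ssa3 at 434 and GPM1 in Ssa3 at 4959.

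Among all features with a value on both arrays, 1.35% were induced in Ssa2, 2.23% in Ssa3 and 5.12% in Ssa4, and 2.4% were repressed in Ssa2, 1.94% in Ssa3 and 7.1% in Ssa4. Of the 3 genes, 2 were induced in Ssa2, 3 in Ssa3 and 1 in Ssa4, and 1 was repressed in Ssa4. Since the genes were picked for these ratios, nothing is read from those counts. HXT1 and HXT7 had Ssa1 intensities below 100, where the share of induced features was 2.15% in Ssa2, 2.96% in Ssa3 and 4.31% in Ssa4. For features of at least 100 on the Ssa1 array, as for GPM1, the share of induced features was 1.89% in Ssa3 and the share of repressed features 4.95% in Ssa4.

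**Figure D2:**
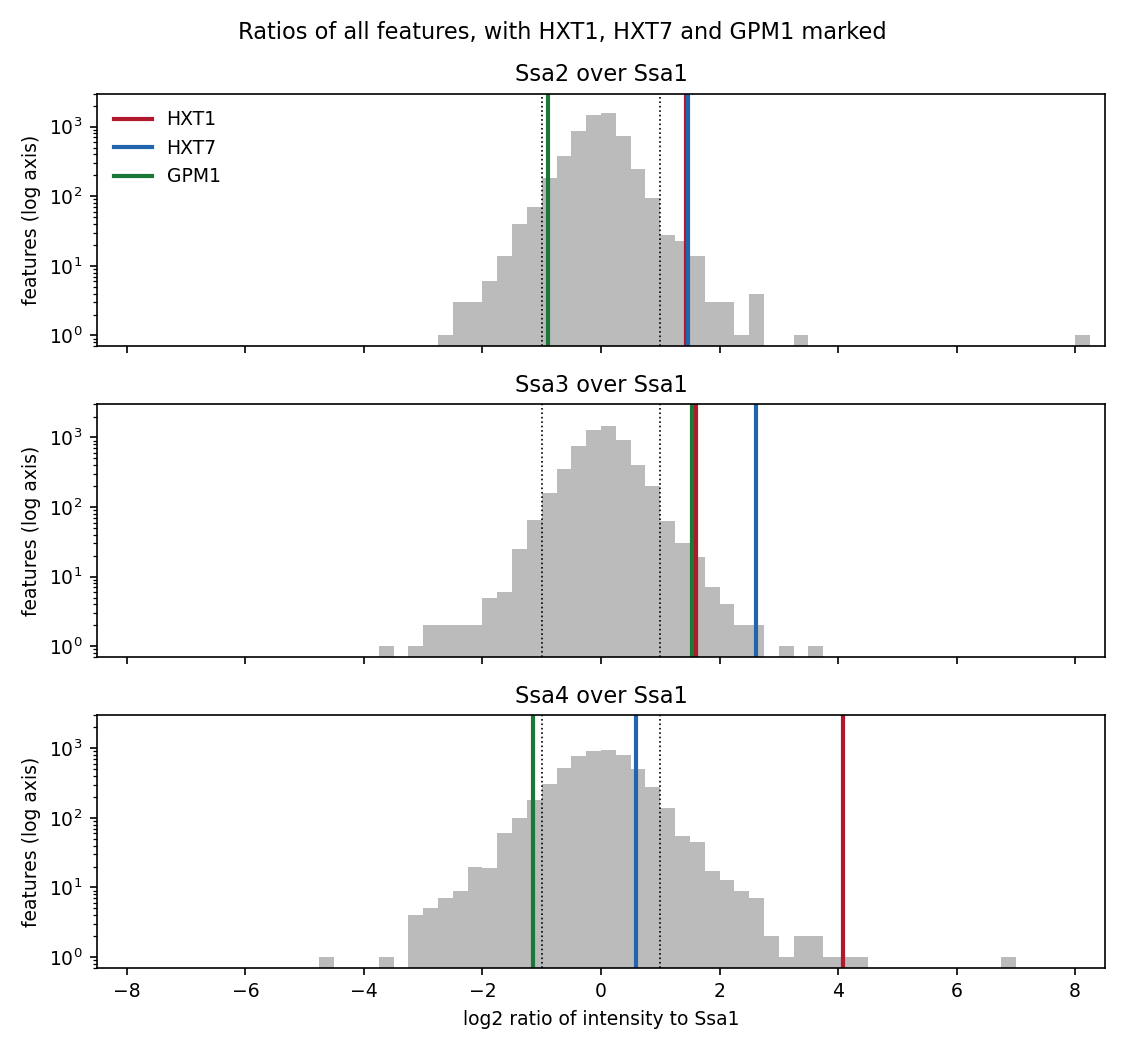
Number of features (log axis) by log2 ratio of intensity to Ssa1 in bins of equal width for Ssa2, Ssa3 and Ssa4, with coloured lines at HXT1, HXT7 and GPM1 and dotted lines at the 2-fold limits. HXT1 at 4.08 in Ssa4 and HXT7 at 2.62 in Ssa3 lie in the sparse right tail, while HXT7 at 0.60 in Ssa4 lies within the bulk.

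The strains other than Ssa1 were then set against each other, which leaves the shared Ssa1 array out. HXT1 in Ssa4 was 6.28 times that in Ssa2 and 5.54 times that in Ssa3. Higher ratios were found for 0.104% of the features in either comparison, and 3.17% and 2.74% of the features were past 2-fold in this direction over Ssa2 and over Ssa3. Between Ssa3 and Ssa2 the ratio of HXT1 was 1.13, a value exceeded by 41.3% of the features, so these strains differed by no more than features do in general.

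For HXT7 the ratio of Ssa3 to Ssa2 was 2.23, and 3.74% of all features were past 2-fold in this direction. The ratio of Ssa4 to Ssa3 was 0.246 and that of Ssa4 to Ssa2 was 0.550, where 3.79% of all features were past 2-fold in this direction and HXT7 was not. On the arrays HXT1 and HXT7 therefore lay on opposite sides of 1 when Ssa4 was set against Ssa3 or against Ssa2. By RT-qPCR, described below, both genes were higher in Ssa4 than in Ssa3 or Ssa2, so that method did not show this contrast. The spread of either gene within a strain was not measured.

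GPM1 in Ssa3 was 5.41 times that in Ssa2, with a higher ratio for 0.0519% of the features. The ratio of Ssa4 to Ssa3 was 0.156, with 6.65% of all features past 2-fold in this direction and 0.0866% below GPM1. Ssa4 over Ssa2 gave 0.843, within the bulk of the features, of which 27.4% were lower. Ssa3 thus stood apart from each of the other strains for GPM1, and Ssa4 and Ssa2 lay close together.

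Most spots close to HXT1 and HXT7 on the array, though not all, also had ratios to Ssa1 above 1. A grid of 32 blocks is implied by the feature names, although the deposited data do not state it, and on this grid HXT1 and HXT7 are 14 positions apart and so neighbours of each other. HXT1 has 4 neighbours, whose median log2 ratio to Ssa1 was 0.65 in Ssa2, 0.81 in Ssa3 and 0.73 in Ssa4. The 6 neighbours of HXT7 had medians of 0.92, 0.98 and 0.89 in Ssa2, Ssa3 and Ssa4. Each of these medians includes the other gene, which was chosen for its high ratios. Without HXT1 and HXT7 among the neighbours, a setting added with the values in view, the medians in Ssa2, Ssa3 and Ssa4 were 0.53, 0.79 and 0.87 around HXT1 and 0.53, 0.79 and 0.72 around HXT7. They rest on 3 neighbours of HXT1 and 5 of HXT7. An unnamed spot that neighbours both genes had log2 ratios of -0.18, 0.15 and -0.67 in Ssa2, Ssa3 and Ssa4. FET3 and RNY1, neighbours of HXT7 with ratios past 2-fold in Ssa2 and Ssa3, had low Ssa1 intensities of 40.8 and 24.6. In Ssa2 and Ssa3 the median around either gene is the value of the same spot, YBR298C-A, whose Ssa1 intensity was 5.90. The medians around HXT1 and HXT7 are therefore not independent. They were still high values, since in this setting 0.870% of all features had a higher neighbour median in Ssa2 and 0.592% in Ssa3 for either gene, and in Ssa4 the share was 0.453% for HXT1 and 1.10% for HXT7.

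With the neighbour median subtracted, the ratio of HXT1 was 1.71 in Ssa2, 1.73 in Ssa3 and 10.2 in Ssa4, so only that in Ssa4 was past 2-fold. That of HXT7 was 1.46 in Ssa2, 3.12 in Ssa3 and 0.820 in Ssa4, and only the value in Ssa3 was past 2-fold. When HXT1 and HXT7 were left out of each other's neighbours, the ratios in Ssa2, Ssa3 and Ssa4 were 1.87, 1.76 and 9.28 for HXT1 and 1.91, 3.54 and 0.916 for HXT7. The ratio of HXT7 in Ssa4 was thus below 1 with either set of neighbours subtracted. In the comparison of Ssa4 with Ssa3, the neighbours other than HXT1 and HXT7 had median log2 ratios near 0, at 0.03 around HXT1 and 0.06 around HXT7. For Ssa3 over Ssa2 these medians were 0.27 around either gene. For Ssa4 over Ssa2 they were 0.09 around HXT1 and 0.21 around HXT7. With the median of all its neighbours subtracted, the HXT7 ratio of Ssa3 to Ssa2 was 1.91, no longer past 2-fold.

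GPM1 had neighbours near 0, with median log2 ratios of 0.03 in Ssa2, 0.02 in Ssa3 and -0.21 in Ssa4. Its ratio in Ssa3 was 2.86 with this median subtracted. In Ssa4 it was 0.524, short of the limit, next to 0.526 in Ssa2.

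**Figure D3:**
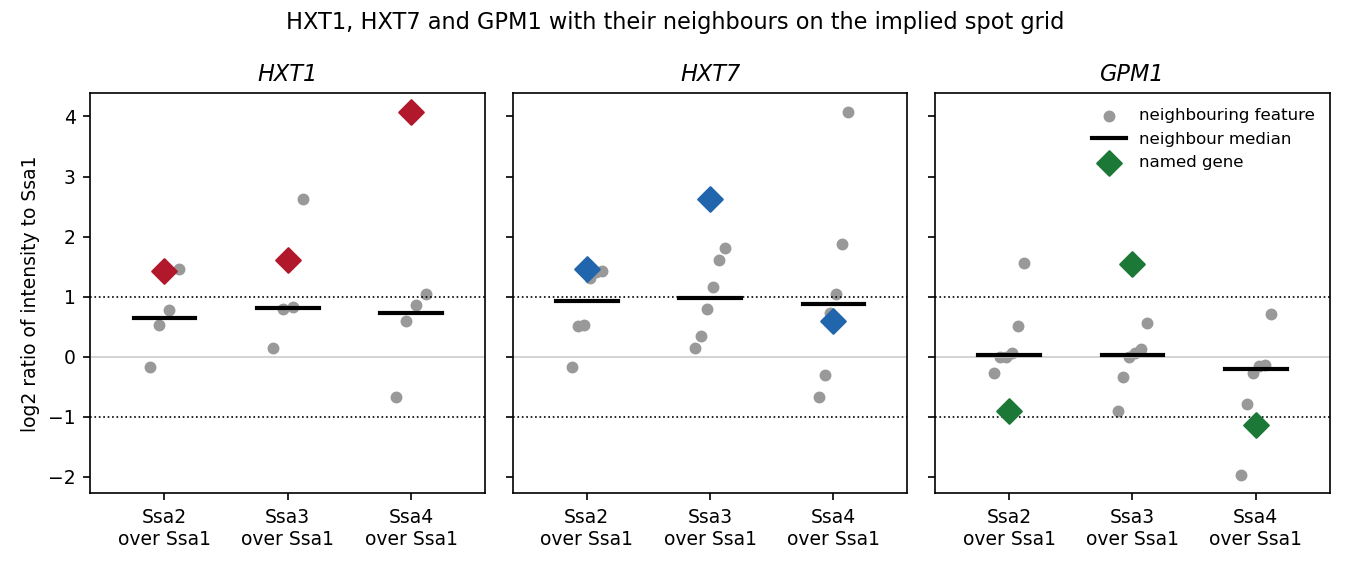
Log2 ratio of intensity to Ssa1 (diamonds) of HXT1, HXT7 and GPM1 in Ssa2, Ssa3 and Ssa4, with the features next to each on the implied grid (grey points), their median (black bars) and the 2-fold limits (dotted). The medians lie between 0.65 and 0.98 around HXT1 and HXT7 and between -0.21 and 0.03 around GPM1.

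RT-qPCR of HXT1 and HXT7, taken relative to ACT1, is available from the study on RNA of the same strains, while GPM1 was not among its genes. For HXT1 the methods were opposite in direction in Ssa2 and Ssa3, where RT-qPCR gave lower values than in Ssa1. In Ssa4 the methods disagreed in size. The array ratio was 16.9, whereas RT-qPCR gave a level close to that in Ssa1, within the limits for induction and repression. The induction of HXT1 on the array was thus not seen by RT-qPCR in any strain. For HXT7 both methods gave higher levels than Ssa1 in every strain. They differed in size, as RT-qPCR passed the limit for induction in Ssa2 and in Ssa4, and the array in Ssa2 and in Ssa3. The strain with the highest HXT7 level was Ssa4 by RT-qPCR and Ssa3 by array. The RT-qPCR values come without an error, so whether these differences exceed the spread of either method was not tested.

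The other transporters were taken from a list of 19 hexose transporters and glucose sensors, of which 8 have a named feature. A gene has a name here only if the study listed it for a change in at least 1 strain, so counts over named genes follow from that choice and are no evidence of a direction, here and for the lists after it. Counting HXT1 and HXT7, 4 of the 8 were induced and 1 repressed in Ssa2, 2 induced and 2 repressed in Ssa3, and 4 induced and 0 repressed in Ssa4. Over all features, most of which have no name, the shares were 1.35% induced and 2.4% repressed in Ssa2, 2.23% and 1.94% in Ssa3, and 5.12% and 7.1% in Ssa4. Of the 8, 4 were past 2-fold in a single strain and so have a name through that strain only.

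HXT4 (YHR092C), a high-affinity transporter, had intensities of 153, 89.5 and 1391 on the Ssa2, Ssa3 and Ssa4 arrays, against 64.8 on the Ssa1 array. Like HXT1 it stood highest in Ssa4, at a ratio of 21.5, where the median log2 ratio of its neighbours was -0.07. In the RefSeq gene order a single annotated gene, AHT1, lies between HXT4 and HXT1.

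HXT6 (YDR343C) is the gene next to HXT7 and codes for a nearly identical protein. It had intensities of 276, 287 and 354 on the Ssa2, Ssa3 and Ssa4 arrays, against 149.9 on the Ssa1 array, and ratios of 1.84, 1.92 and 2.36. The peak of HXT7 in Ssa3 was not seen at HXT6, which was highest in Ssa4. HXT6 was past 2-fold in Ssa4 only and so is named through that strain. Its order of strains follows from this and is no evidence about the peak of HXT7. The oligonucleotide sequences of the spots were not analysed here, so how far each of these features measures its own gene alone is uncertain.

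HXT2 (YMR011W), another high-affinity transporter, was lowest in Ssa3, with intensities of 443, 151 and 239 on the Ssa2, Ssa3 and Ssa4 arrays, against 357 on the Ssa1 array. Its ratio in Ssa3 was 0.424, where HXT7 had 6.15. HXT3 (YDR345C), a low-affinity transporter, also was below 0.5 in Ssa3, at a ratio of 0.288, but its intensities were 9.33, 3.19 and 17.2 on the Ssa2, Ssa3 and Ssa4 arrays, against 11.1 on the Ssa1 array. The neighbours of HXT3 had a median log2 ratio of -1.04 in Ssa3, and with it subtracted the ratio was 0.594. Both HXT2 and HXT3 were past 2-fold in Ssa3 only and so are named through that strain. HXT11 was induced in Ssa2, at 2.15, and in Ssa4, at 3.14, and HXT14 was repressed in Ssa2 at 0.369 with all intensities below 7.

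Of 20 genes of sugar phosphorylation and glycolysis, 4 have a named feature, GPM1 among them. HXK2 (YGL253W), the main hexokinase of cells on glucose, had intensities of 3389, 1233 and 2099 on the Ssa2, Ssa3 and Ssa4 arrays, against 2473 on the Ssa1 array, so that it was lowest in Ssa3, where GPM1 was highest. Its ratio of 0.499 in Ssa3 is at the limit. HXK1 (YFR053C), the hexokinase repressed by glucose, was highest in Ssa4 with intensities of 7435, 11756 and 18626 on the Ssa2, Ssa3 and Ssa4 arrays, against 6390 on the Ssa1 array, and a ratio of 2.91 in Ssa4. EMI2, which is related to glucokinase, had ratios of 1.26, 1.45 and 2.22 in Ssa2, Ssa3 and Ssa4. HXK2 was past 2-fold in Ssa3 only, and HXK1 and EMI2 in Ssa4 only, so each is named through that strain. The pattern of GPM1 was a ratio above 1 in Ssa3 and below 1 in both Ssa2 and Ssa4. HXK2, HXK1 and EMI2 did not share it, and as each is named through a single strain, nothing is read from that. ALD2, from the list of fermentation and ethanol use below, did lie on the same sides of 1. Its ratios were 0.685, 1.25 and 0.437 in Ssa2, Ssa3 and Ssa4, and it is named through Ssa4 only.

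Among 21 regulators of the glucose response, 3 have a named feature. MTH1, which with STD1 acts in the repression of HXT genes when glucose is low, had intensities of 115, 163 and 252 on the Ssa2, Ssa3 and Ssa4 arrays, against 63.4 on the Ssa1 array, and a ratio of 3.97 in Ssa4. STD1 had 32.6, 39.3 and 76.6, against 22.6 on the Ssa1 array, and a ratio of 3.39 in Ssa4, the one strain in which it was past 2-fold. MIG2, a repressor of transcription that acts on glucose, had 13.3, 11.1 and 16.1, against 6.15 on the Ssa1 array. Its intensities were below 20 on all 4 arrays.

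Of 9 genes of gluconeogenesis and the glyoxylate cycle 5 have a named feature, and 3 of these, FBP1, ICL1 and MDH2, were past 2-fold in Ssa4 only, so that they are named through that strain. In Ssa4 the ratios of FBP1, ICL1, MLS1, MDH2 and ACO1 were 0.456, 0.229, 0.1298, 0.462 and 0.491, where 7.1% of all features were repressed. ICL1, isocitrate lyase, had intensities of 20566, 16310 and 5998 on the Ssa2, Ssa3 and Ssa4 arrays, against 26197 on the Ssa1 array. Of 18 genes of fermentation and ethanol use 8 have a name, 4 of them (ALD2, ACS1, ACS2 and ACH1) through Ssa4 only. ADH2 (YMR303C), the alcohol dehydrogenase of ethanol use, had ratios of 0.213, 0.384 and 0.0381 in Ssa2, Ssa3 and Ssa4, and ALD3, an aldehyde dehydrogenase, had 0.675, 2.20 and 4.37.

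In Ssa3, the strain of highest HXT7 and GPM1, PDC6, a minor pyruvate decarboxylase, and ALD3 were induced at 2.35 and 2.20, and ADH2 was repressed. PDC6 was past 2-fold in Ssa3 only and so is named through that strain. Of all features, 2.23% were induced and 1.94% repressed in Ssa3, and nothing is read from these genes. In Ssa2 the repressed genes of the fermentation and gluconeogenesis lists were ADH1, the main alcohol dehydrogenase of fermentation, at 0.376, ADH2, MLS1 at 0.470 and ACO1, aconitase, at 0.313. GPM1, at 0.537, was not past the limit. ADH1 was past 2-fold in Ssa2 only and so is named through that strain. Of all features, 2.4% were repressed in Ssa2. Of 17 genes of reserve carbohydrates 2 have a name. GPH1, glycogen phosphorylase, had ratios of 0.432, 1.13 and 1.40 in Ssa2, Ssa3 and Ssa4, and TPS1, trehalose-6-phosphate synthase, had 1.22, 1.78 and 2.03. GPH1 was past 2-fold in Ssa2 only and TPS1 in Ssa4 only, so each is named through that strain.

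**Figure D4:**
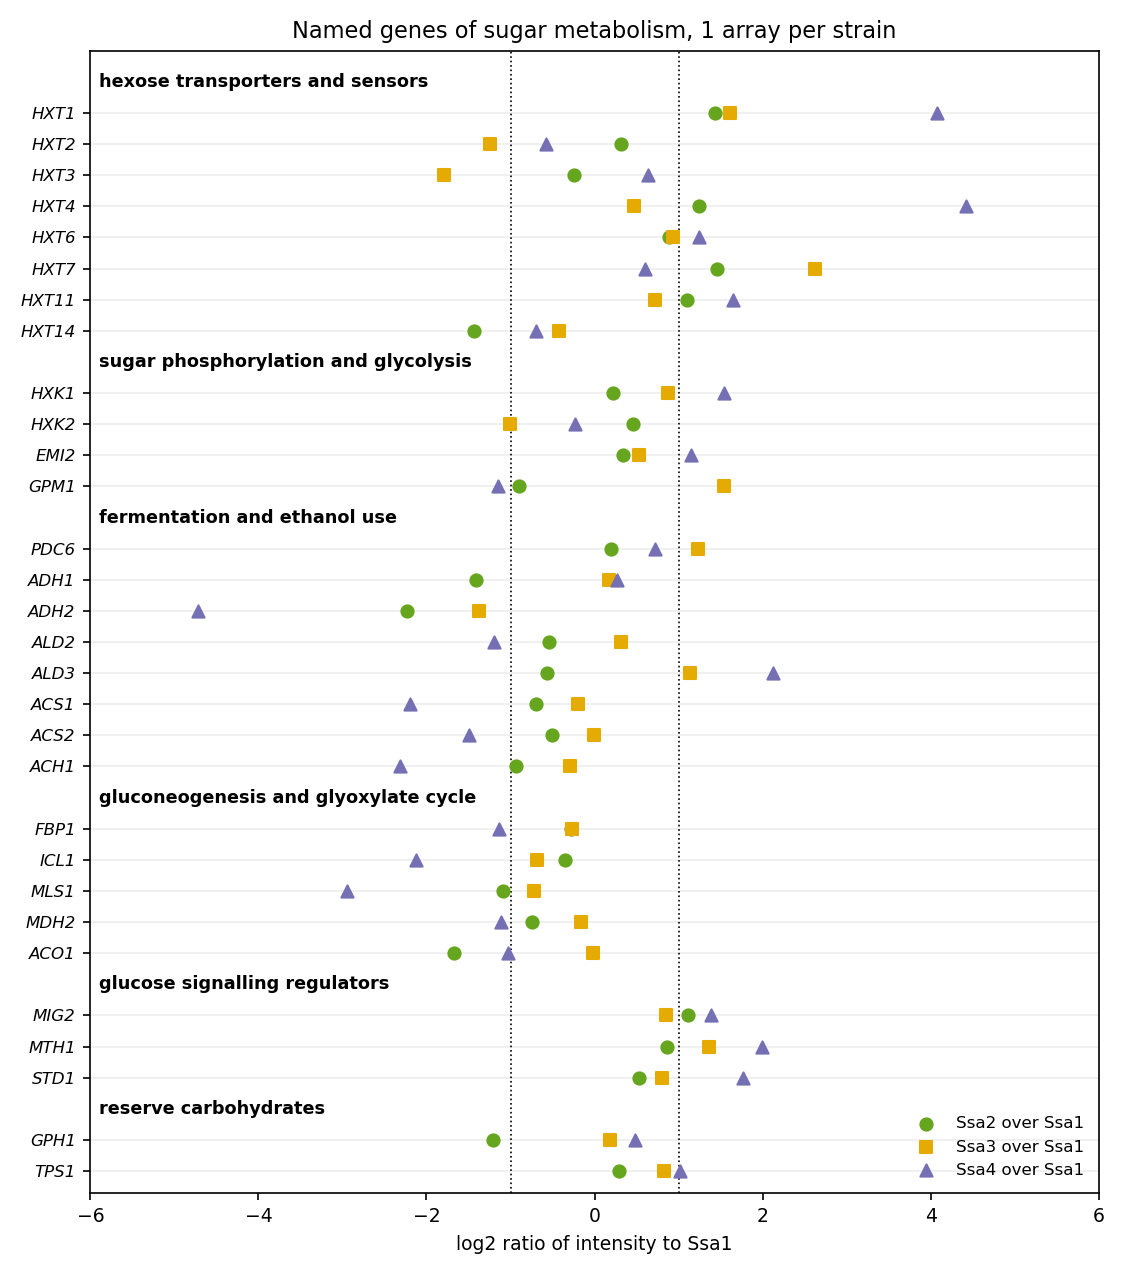
Log2 ratio of intensity to Ssa1 for the 30 genes of the 6 lists that have a name, in Ssa2 (circles), Ssa3 (squares) and Ssa4 (triangles), with dotted lines at the 2-fold limits and 1 array per strain. HXT1 and HXT4 lie far to the right in Ssa4, at 4.08 and 4.42, and HXT7 in Ssa3, at 2.62. Genes are shown only if the study listed them as changed in at least 1 strain.

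The named genes with the most similar pattern over the 4 arrays were sought by the distance between log2 intensities centred on their mean, among features with at least 100 on at least 1 array. Nearest to HXT1 were OYE3 at a distance of 0.55, YNR014W at 0.77 and CYC7 at 0.95. These were also the nearest of all 4160 features, named or not. OYE3, an NADPH oxidoreductase, had intensities of 654, 654 and 2458 on the Ssa2, Ssa3 and Ssa4 arrays, against 197 on the Ssa1 array. CYC7, an isoform of cytochrome c, had 608, 568 and 1636, against 200.1 on the Ssa1 array.

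Nearest to HXT7 among named genes were MRP1, a mitochondrial ribosomal protein, at a distance of 0.82, YFL002W at 0.95 and GIC2, which acts with the GTPase Cdc42, at 0.98. These held places 2, 3 and 4 among all features, and the nearest feature has no name. MRP1 had intensities of 488, 728 and 279 on the Ssa2, Ssa3 and Ssa4 arrays, against 265 on the Ssa1 array. GIC2 was highest in Ssa2, at 496 against 438 in Ssa3, so it did not share the peak of HXT7 in Ssa3. For GPM1 the nearest were YDR365W-B at 0.64, YCL042W at 0.72 and STL1, a glycerol transporter, at 0.75. YDR365W-B had intensities of 32.4, 103 and 22.3 on the Ssa2, Ssa3 and Ssa4 arrays, against 61.8 on the Ssa1 array. YCL042W had 36.3, 186 and 18.9, against 83.0 on the Ssa1 array. Both reached the intensity limit of the search on the Ssa3 array only, where GPM1 was highest. Their peak in Ssa3 therefore follows in part from that limit, and nothing is read from it. STL1 had intensities of 68.4, 213 and 48.4 on the Ssa2, Ssa3 and Ssa4 arrays, against 147 on the Ssa1 array, an order of strains like that of GPM1 but with a ratio of 1.45 in Ssa3. The distances rest on 4 arrays with no replicate, and no test was made.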

How the data were processed

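Each strain was represented by 1 array (3D-Gene yeast oligonucleotide chip, Cy5). The authors took the median foreground of each spot, kept spots above the background of blank spots, removed the mean of that background and scaled the arrays to a common median. The deposited intensities are on a linear scale, and 8 to 18 features per array have no value. They were taken over as deposited. Ratios to Ssa1 were formed without an offset or a filter.

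HXT1, HXT7, GPM1 and the gene lists were chosen with earlier results of these data known. Named genes are these 3, every list gene with a name, the 3 named features nearest to each in pattern, and SSA2. Names came from 956 rows of the study's list of changed genes, each matched to exactly 1 feature in all 4 values (relative tolerance 1e-05), and 0 rows matched with the columns shifted. Of the loci, 936 are in the RefSeq table (assembly R64), used for names and gene order only. Neighbours are the features 1, 14 and 15 positions away in a block, at least 3 of 6 having a value, and these distances were picked on the same data in earlier work. RT-qPCR was compared by direction only. Counting was tested on simulated data. Calculations used Python 3.11.15, numpy 2.4.6, pandas 2.3.3, statsmodels 0.14.6 and matplotlib 3.10.9.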

Additional observations from a re-analysis of the deposited data

Results flagged for a closer look

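GPM1 was past 2-fold in opposite directions, with a ratio to Ssa1 of 2.91 in Ssa3 and 0.453 in Ssa4. With 1 array per strain this difference was not tested. Ratios past 2-fold on both sides were found for 10 of the 5794 features.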

How the results depend on the processing

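Of the 9 ratios of HXT1, HXT7 and GPM1 to Ssa1, none moved by over 1.5 times or crossed a 2-fold limit with equal array medians or with a lowess curve (fraction 0.4) subtracted. The limit of 1.5 times was set by choice. It does not measure a replicate spread, which 1 array per strain cannot give. Quantile normalization moved only GPM1 in Ssa2, to 0.486. An offset of 50 gave 1.75, 1.90 and 8.02 for HXT1 in Ssa2, Ssa3 and Ssa4 and 4.01 for HXT7 in Ssa3. With the neighbour median subtracted, HXT1 had 1.71, 1.73 and 10.2, HXT7 had 1.46, 3.12 and 0.820, and GPM1 in Ssa4 had 0.524. Without HXT1 and HXT7 among the neighbours, chosen after the data were seen, these were 1.87, 1.76 and 9.28, 1.91, 3.54 and 0.916, and 0.524. HXT7 in Ssa4, at 1.51 as deposited, was thus below 1 with either set of neighbours. When each strain was set against the median of the remaining 3 arrays, HXT1 had 0.883 in Ssa2, the other direction, 1.13 in Ssa3 and 6.28 in Ssa4, HXT7 had 1.82, 4.06 and 0.550, the last again in the other direction, and GPM1 in Ssa3 had 5.41. In this last setting the low Ssa1 values of HXT1 and HXT7 no longer form the reference.

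For all features, 78, 129 and 296 were induced and 139, 112 and 410 repressed in Ssa2, Ssa3 and Ssa4. A 3-fold threshold gave 24, 26 and 82 induced and 24, 16 and 104 repressed. With at least 100 on both arrays 38 and 74 were induced in Ssa2 and Ssa3, and 38, 49 and 120 repressed in the 3 strains. An offset of 50 gave 39, 64 and 193 induced and 37, 38 and 115 repressed, and subtraction of the neighbour median gave 74 repressed in Ssa3. No paired analysis was possible because each strain has 1 array.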
